A study of Equus caballus with 32 samples.

Results

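Interferon-stimulated genes, the antiviral genes that cells switch on when they sense interferon, were followed in the whole blood of mares after weaning of their foals. The set was a list of 37 gene symbols, and its members were found by matching those symbols to the gene names of the array's probes. Of the 37, 30 were named on the array, by 54 probes, among 24518 gene names in all. ADAR, CMPK2, DHX58, IFIT1, IFIT2, SP110 and USP18 were not among the array's names and were not analysed here. MX2 had 2 probes, which were well above background on 0 and on 2 of the 32 arrays, so it was not tested. The other 29 members were tested together with all other genes, 14495 in total, and 28 of them were well above background on all 32 arrays (TRIM25 was so on 31).

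All 32 animals were Welsh Pony mares, and each gave venous blood 30 days after weaning. In 16 mares the labels call the weaning brutal and in the other 16 progressive, without describing either procedure, and they give no ages and no unweaned group. The blood was taken into tubes that stabilise RNA, and Cy3-labelled copies of the RNA were hybridised to single-colour Agilent arrays, 1 array for each mare. The question that the design poses is whether the weaning procedure left a difference in blood gene expression.

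Interferons are secreted proteins that warn cells of infection. They bind receptors on the cell surface, whose kinases activate STAT proteins, and STAT2 joins IRF9 in a complex that enters the nucleus and switches on a shared battery of genes. That battery includes sensors of viral RNA, enzymes that destroy RNA or stop translation, and proteins that modify or trap viral parts, as well as IRF7, which drives further interferon production. In blood the battery is known to be active to very different degrees in different individuals and to serve as a readout of recent interferon exposure.

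Each of the 4 slides carried arrays of 4 brutal and 4 progressive mares. The 75th percentile of the spot intensities ran from 339.2 to 646.0 over the arrays, and 53.0% to 66.01% of spots were well above background. Levels are given as the log2 of a probe's intensity relative to the 75th percentile of its own array, so 0 is that percentile itself and 1 unit is a 2-fold step. Where a gene had several probes, the brightest was used, and levels of different probes are not compared. The array progressive 16 had 851 outlier spots, while the other arrays had at most 180, so counts of calls are also given without it. Defining blood cell markers were well above background on all 32 arrays: CD3E of T cells, MS4A1 of B cells, CD14 of monocytes, S100A8 of neutrophils, HBB of red cells and PF4 of platelets. Of the listed markers on the array, this held for 11 of 12 of T cells, 9 of 9 of B cells and 8 of 9 of monocytes. It held for 12 of 14 of neutrophils, 5 of 10 of red cells and 7 of 12 of platelets. In whole blood a lower level can come from fewer cells of a type or from less RNA in each cell, and these cannot be told apart.

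The probes are 60 bases long, and the files place them on the horse assembly that the scanner headers name as EquCab1. The sequences below belong to the members that the results turn on: ISG15, IRF7, DTX3L and DDX58 rose with MX1 from mare to mare, RSAD2 did not, and the 2 probes of TRIM25 gave different answers. All were on the minus strand, and capitals mark a stop codon that ends an otherwise open reading frame.
ISG15, chrUn:254070794-254070853: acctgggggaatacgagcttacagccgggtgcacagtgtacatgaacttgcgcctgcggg
IRF7, chrUn:305567879-305567938: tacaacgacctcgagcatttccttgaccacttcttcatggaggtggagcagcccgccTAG
DTX3L, chr19:32984651-32984710: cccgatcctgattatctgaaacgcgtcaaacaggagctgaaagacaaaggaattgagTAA
DDX58, chr23:39516222-39516281: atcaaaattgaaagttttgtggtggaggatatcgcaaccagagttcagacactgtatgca
RSAD2, chr15:82669576-82669635: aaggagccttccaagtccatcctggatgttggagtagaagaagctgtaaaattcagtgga
TRIM25, brighter probe, chr11:30101330-30101389: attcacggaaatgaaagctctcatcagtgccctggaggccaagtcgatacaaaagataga
TRIM25, dimmer probe, chrUn:343247943-343248002: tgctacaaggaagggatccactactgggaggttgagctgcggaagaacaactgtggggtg

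Mares differed widely in these genes, whatever their weaning. The SD of a member over the 32 mares had a median of 0.51, against 0.32 over all genes tested, and 27 of 29 members lay above the latter value. The distance from the lowest to the highest mare was 3.94-fold for the median member. IFIT5, an RNA-binding antiviral protein, spanned the most, 16.8-fold, followed by MX1 at 11.9-fold, ISG15 at 9.16-fold and IRF7 at 8.85-fold. OASL spanned the least by its brightest probe, 1.69-fold, while its other probe had an SD of 0.67.

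The same few mares held the high values for many members at once. The mare progressive 7 was above the mean of all mares for 29 of 29 members and had the highest level of all mares for 11 of them. Brutal 3 was above the mean for 28 members and was the highest for 7. Progressive 12, with the highest MX1, brutal 14, brutal 2 and progressive 8 were each above the mean for 25. At the other end, progressive 14 and brutal 4 were above the mean for 2 members each. High and low mares thus stood in both weaning groups.

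**Figure D1:**
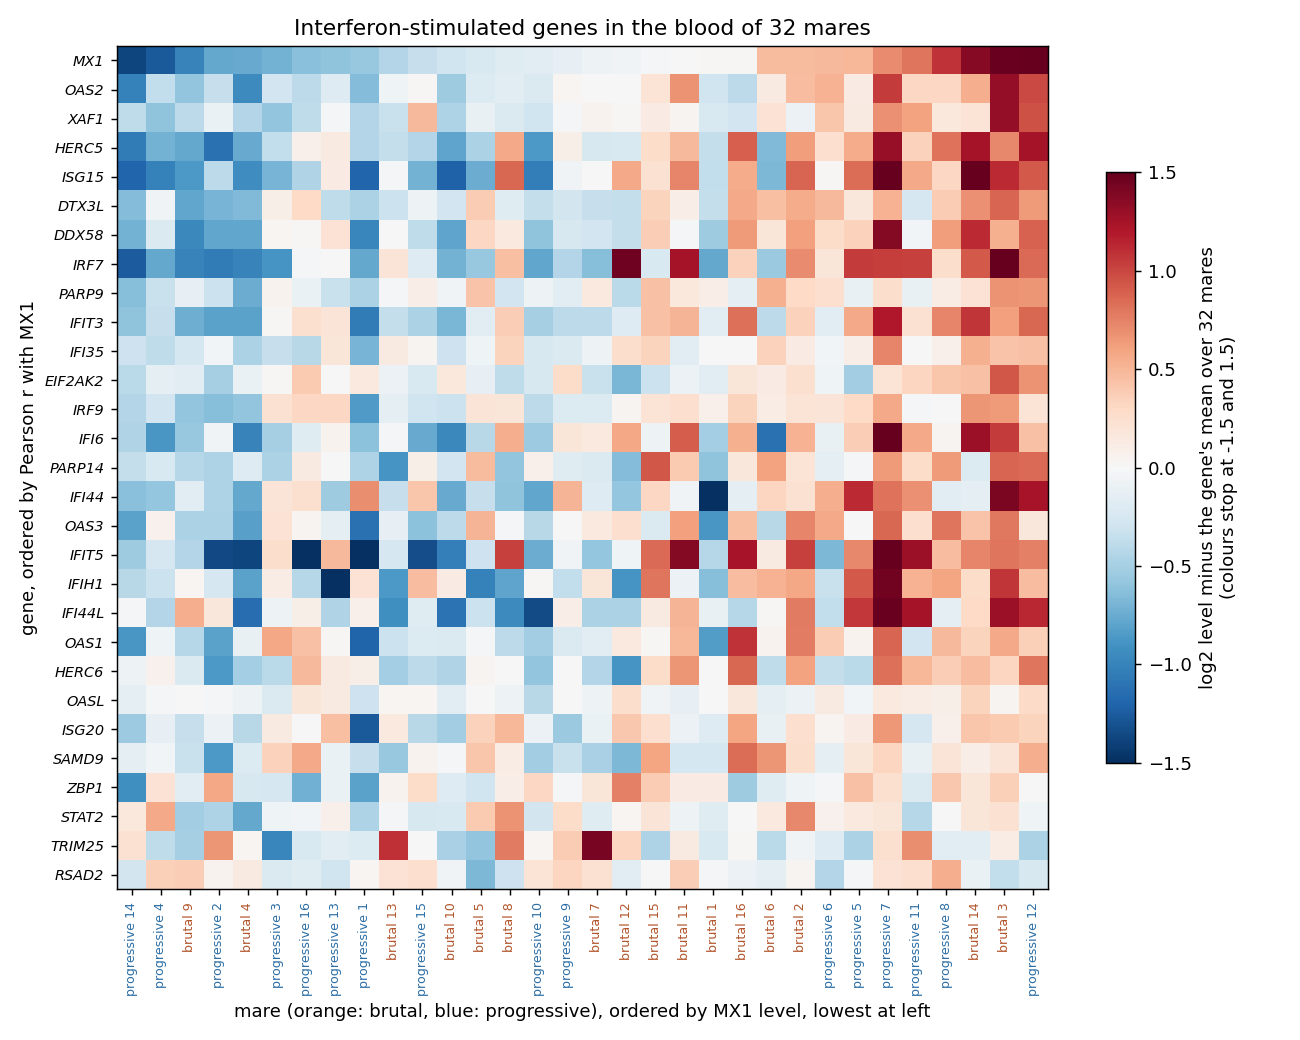
Each column is 1 mare, ordered by its MX1 level, and each row is 1 of the 29 tested members, ordered by its Pearson correlation with MX1. Colour gives the log2 level minus the gene's mean over the 32 mares; red columns such as progressive 7 and brutal 3 run through most rows, and the rows of TRIM25 (r = -0.03) and RSAD2 (r = -0.11) at the bottom do not follow the order of mares.

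To measure how far the members moved together, each gene tested was fitted on the level of MX1, a dynamin-like GTPase that blocks viral nucleocapsids and a standard interferon-induced gene. In the brutal group MX1 ran from 1.06 through a median of 2.02 to 3.54, and in the progressive group from 0.69 through 1.81 to 4.26. The groups overlapped, and the lowest and the highest mare were both progressive. Of 28 other members, 13 rose with MX1 at an adjusted p under 0.05 (limma, Benjamini-Hochberg over 14494 genes). Of all genes tested, 0.345% did so, 50 genes, and 1 gene fell (0.0069%). At an unadjusted p under 0.05 there were 24 of 28 members, beside 3.36% of all genes. Slopes were above 0 for 26 of 28 members and for 47.9% of all genes. The median slope of the members was 0.37 log2 units per unit of MX1, against -0.0031 over all genes, and their median Pearson correlation was 0.58, against -0.0075.

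A permutation test over the 32 mares (100000 permutations, two-sided, adjusted over 14264 genes with a value on every array) called 11 of the 28 members by Pearson's r and 10 by Spearman's rho, beside 44 (0.308%) and 38 (0.266%) of all genes. The relation held in part without the 2 mares farthest from the MX1 median, progressive 12 and brutal 3: the median r was then 0.53, r was above 0 for 28 of 28 members, and 8 members were called, all of them among the 13 (0.103% of all genes). Within slides, the members' median r with MX1 was 0.73, 0.52, 0.66 and 0.60 on slides 1 to 4, beside medians between -0.085 and 0.083 over all genes. Among brutal mares it was 0.59, and among progressive mares 0.59 as well. In smaller sets the calls became fewer. Among brutal mares alone 0 members were called (0% of all genes), and among progressive mares alone 2 (0.0276%). Without slide 1 there were 4 (0.0621% of all genes), without slide 2 11 (0.2%), without slide 3 7 (0.103%) and without slide 4 11 (0.255%). Without progressive 16 there were 13 (0.338%), 12 of them the same genes. MX1 itself had r = -0.18 with the percentage of spots well above background and 0.08 with the 75th percentile, and with the former as a further term 10 members were called (0.283% of all genes).

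**Figure D2:**
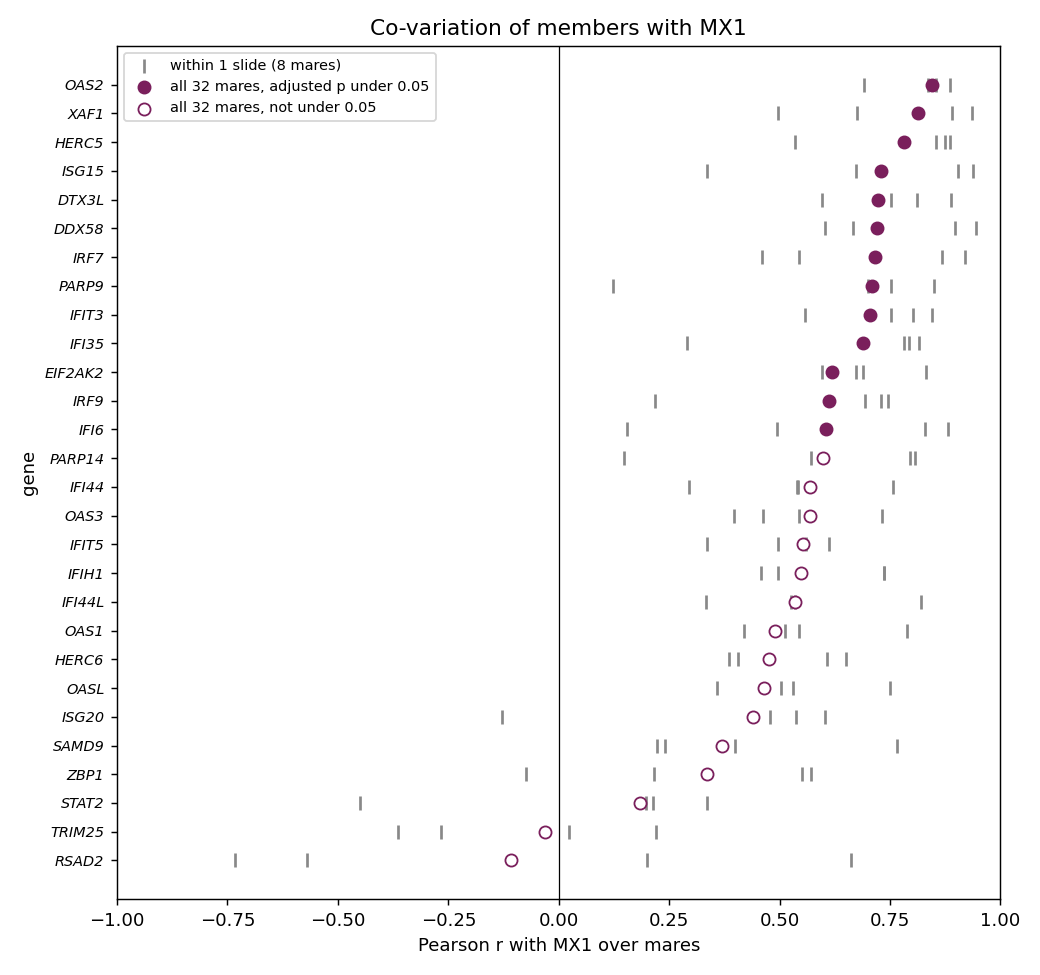
Pearson correlation of each of 28 members with MX1 over all 32 mares (circles, filled where the adjusted p was under 0.05) and within each slide of 8 mares (grey ticks). OAS2 stands highest at 0.85, and TRIM25 and RSAD2 lie below 0.

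Among the transcription factors, IRF7, the driver of further interferon production, followed MX1 closely. IRF7 levels ran from 3.99 through 4.98 to 6.90 after brutal weaning and from 3.75 through 4.88 to 6.05 after progressive weaning. Its slope was 0.76 ± 0.13 (SE), with r = 0.72, rho = 0.76 and an adjusted limma p of 0.00214. IRF9, the DNA-binding part of the STAT complex, had the same direction, with a slope of 0.29 ± 0.07, r = 0.61 and an adjusted p of 0.0448. That call was lost under 13 of 19 alternatives, among them quantile normalisation, weaning type as a term and the omission of any 1 slide. Its levels ran from 1.18 through 1.93 to 2.43 after brutal weaning and from 0.92 through 1.76 to 2.34 after progressive weaning. STAT2, which belongs to that complex, had r = 0.18 and a slope of 0.08 ± 0.07 (adjusted p = 0.99995). STAT2 levels lay between -2.79 and -1.30 (median -2.01) after brutal weaning and between -2.49 and -1.46 (median -2.05) after progressive weaning. Its 3 overlapping probes correlated with MX1 at 0.18, 0.21 and 0.25.

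The sensors detect viral nucleic acid inside the cell. DDX58, which encodes the RNA sensor RIG-I, ran from 0.00 through 1.03 to 2.08 in brutal mares and from -0.01 through 0.95 to 2.34 in progressive mares. It rose with MX1 (slope 0.54 ± 0.09, r = 0.72, adjusted p = 0.00211). Its 2 adjacent probes gave the same r. IFIH1, the sensor MDA5 of long double-stranded RNA, ran from -2.70 through -1.62 to -0.62 and from -3.30 through -1.64 to -0.24, respectively. Its slope of 0.47 ± 0.12 (r = 0.55) did not pass after adjustment (adjusted p = 0.141). ZBP1, a sensor of Z-form nucleic acid, had r = 0.33 (adjusted p = 0.99995).

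IFIT proteins bind foreign RNA and block its translation. IFIT3 ran from 2.31 through 2.95 to 4.19 after brutal weaning and from 2.06 through 3.05 to 4.31 after progressive weaning, the highest mares being progressive 7 and brutal 14. It rose with MX1 with a slope of 0.53 ± 0.09 (r = 0.70, adjusted p = 0.00282). IFIT5 was the member with the widest spread, with an SD of 0.999 and levels from -1.69 through -0.28 to 1.07 and from -2.33 through -0.47 to 1.73. Its slope of 0.69 ± 0.18 was steep, but the scatter around it was also wide (r = 0.55, adjusted p = 0.130).

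OAS enzymes make a short messenger from ATP that activates the ribonuclease RNase L. OAS2 followed MX1 more closely than any other member, with r = 0.85, a slope of 0.58 ± 0.07 and an adjusted p of 6.67e-06. Its levels ran from 0.67 through 1.60 to 2.95 in brutal and from 0.62 through 1.54 to 2.68 in progressive mares. OAS1 was less tied to MX1 (r = 0.49, adjusted p = 0.442), with levels from 4.37 through 5.21 to 6.29 and from 4.01 through 5.19 to 6.08. OAS3 had r = 0.57 (adjusted p = 0.109). The 4 probes of OAS1 and the 6 of OAS2 each gave nearly the same pattern over mares, with r of 0.98 or more to the brightest. Over those probes r with MX1 lay between 0.49 and 0.52 for OAS1 and between 0.83 and 0.85 for OAS2.

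OASL, the OAS relative that has no such enzyme activity, gave a different picture with each of its 2 adjacent probes on chromosome 8. The brightest, at 13067290 to 13067349, varied least of all members (SD 0.16) and had r = 0.47 with MX1. The other, at 13067230 to 13067289, had an SD of 0.67 and r = 0.63, and the 2 probes correlated at 0.68. The last 30 bases of both are printed here because they differ in 1 feature: the brightest probe holds the letters AATAAA (in capitals), those of the usual polyadenylation signal.
OASL, brightest probe: actccatgctattttctgAATAAAagagca
OASL, other probe: ttagctttaaccctcaacacattgcagctc
On the probe's own strand, AATAAA was found in 2 of the 54 member probes and in 8.63% of all 43987 probes.

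ISG15 is a ubiquitin-like protein that is attached to other proteins, and HERC5 is the main ligase that attaches it. ISG15 ran from 4.35 through 5.68 to 7.44 in brutal mares and from 4.38 through 5.35 to 7.55 in progressive mares, with progressive 7 and brutal 14 the highest. It rose with MX1 with a slope of 0.80 ± 0.13 (r = 0.73, adjusted p = 0.00144). HERC5 ran from 0.24 through 0.79 to 2.28 and from -0.10 through 1.11 to 2.34, and rose with a slope of 0.69 ± 0.10 (r = 0.78, adjusted p = 0.000127). HERC6, its paralogue, had r = 0.48 (adjusted p = 0.519). UBA7, the activating enzyme of ISG15, is no member, yet it was among the 10 other genes with the highest r: 0.71 (slope 0.30 ± 0.05, adjusted p = 0.00350).

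TRIM25, a ligase that modifies RIG-I, did not follow MX1 by its brighter probe (r = -0.03), which was also unrelated to its other probe (r = 0.07 between them). The dimmer probe, well above background on 23 arrays, had r = 0.55 with MX1. The files place the pair on different sequences, chromosome 11 and the unplaced set, as printed above. Which of them reads TRIM25 was not tested.

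PARP9 and DTX3L form a complex that enhances interferon signalling. Both rose with MX1, PARP9 with r = 0.71 (slope 0.31 ± 0.06, adjusted p = 0.00382, lost under 5 of 19 alternatives) and DTX3L with r = 0.72 (slope 0.42 ± 0.07, adjusted p = 0.00214). PARP9 ran from -2.24 through -1.37 to -0.83 in brutal mares and from -2.14 through -1.60 to -0.83 in progressive mares. PARP14, their neighbour, had r = 0.60 and an adjusted p of 0.0530. The dimmer probes of PARP9 and PARP14 had r of 0.66 and 0.42 with MX1.

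Of 9 further effectors, 4 rose with MX1: XAF1, a promoter of cell death, with r = 0.81 (adjusted p = 4.42e-05), IFI35 with r = 0.69 (adjusted p = 0.00714), EIF2AK2, the kinase PKR that stops translation, with r = 0.62 (adjusted p = 0.0410), and IFI6 with r = 0.60 (adjusted p = 0.0417). The calls of EIF2AK2 and IFI6 were lost under 11 and 14 of 19 alternatives, including no filter on dim probes and the omission of slide 1, 3 or 4, and by the permutation test of Pearson's r (adjusted p = 0.0834 and 0.0823). The call of IFI35 was lost under 6, among them the omission of slide 1 or 3. IFI44 (r = 0.57), IFI44L (0.54), the exonuclease ISG20 (0.44) and SAMD9 (0.37) had adjusted p-values of 0.102, 0.181, 0.821 and 0.99995. The dimmer probes of EIF2AK2 had r of 0.52 and 0.52 with MX1, and those of SAMD9 had 0.47 and 0.44. RSAD2, the antiviral enzyme viperin, went its own way. RSAD2 ran from -2.61 through -1.97 to -1.56 in brutal and from -2.36 through -1.89 to -1.39 in progressive mares, and had r = -0.11 (slope -0.04 ± 0.06, adjusted p = 0.99995). It was well above background on all 32 arrays, by 1 probe. On slides 1 to 4 its r with MX1 was -0.73, 0.66, -0.57 and 0.20, and its highest r with any other member was 0.27, with IFIH1.

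**Figure D3:**
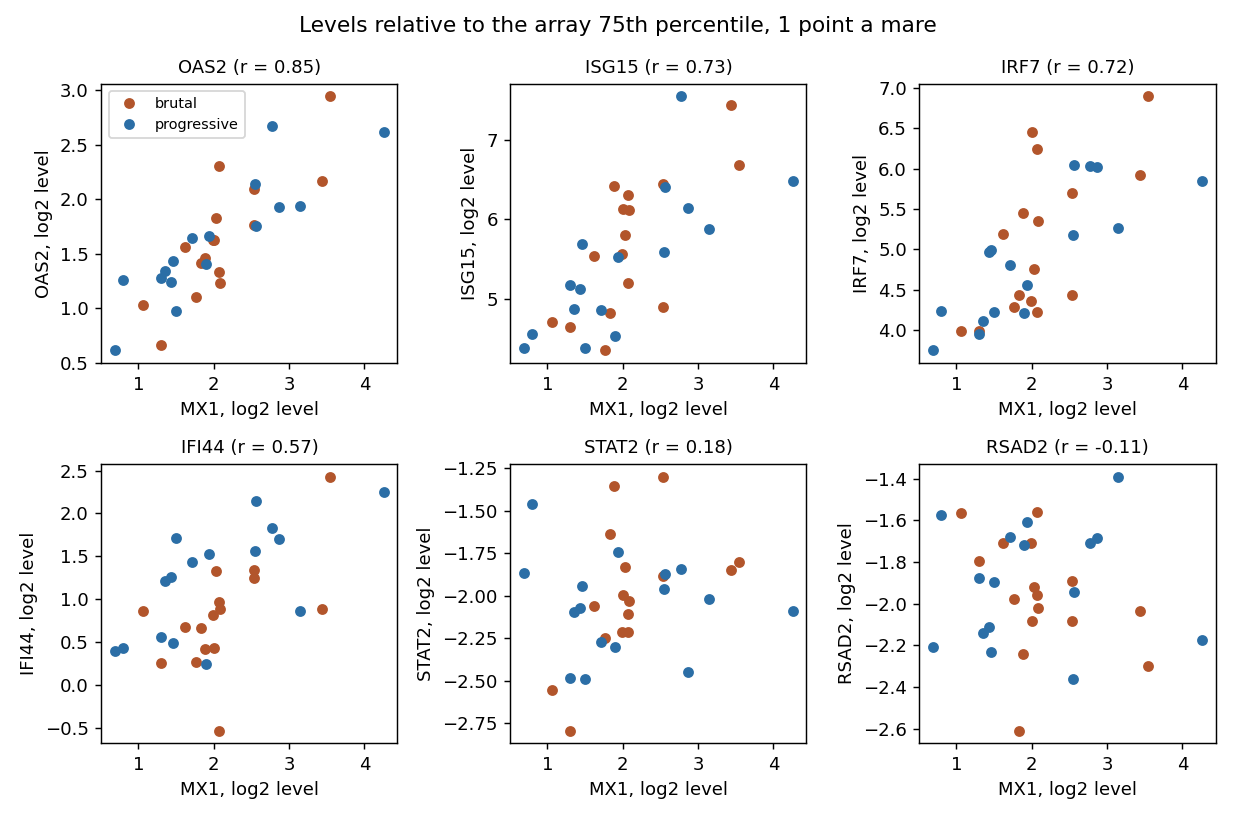
Log2 levels of 6 members (vertical) against MX1 (horizontal), 1 point a mare, brutal in orange and progressive in blue. OAS2, ISG15 and IRF7 rise with MX1, IFI44 less tightly (r = 0.57), and STAT2 (r = 0.18) and RSAD2 (r = -0.11) show no slope that was called.

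Some pairs of members correlated more closely than any member did with MX1. Over 406 pairs of the 29 members the median r was 0.49, and 49.0% of pairs were above 0.5, compared with a median of 0.012 and 6.70% over all pairs of genes. These are descriptions over the same 32 mares. ISG15 and IFI6 correlated at 0.94, IFIT3 and HERC5 at 0.93, and IFIT3 and DDX58 at 0.92. HERC5 and DTX3L each had r above 0.5 with 22 of the 28 other members, IFIT3, OAS2 and DDX58 with 21, and MX1 with 19. RSAD2 and TRIM25 had none, ZBP1 had 1 and STAT2 had 5. The lowest r of any pair, -0.53, was between TRIM25 and SAMD9.

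Several members are neighbours in the genome. Taking pairs whose brightest probes lie within 500 kb of each other on EquCab1, there were 9 pairs with both genes tested, with a median r of 0.74. On chromosome 8 OAS1 and OAS3 lay 25.3 kb apart (r = 0.83) and OAS1 and OAS2 57.9 kb apart (r = 0.59). IFIT3 and IFIT5 on chromosome 1 had r = 0.82, DTX3L and PARP9 on chromosome 19 r = 0.77, HERC5 and HERC6 on chromosome 3 r = 0.75, and IFI44 and IFI44L on chromosome 5 r = 0.74. IFI44 and IFI44L were each other's closest member, as were OAS1 and OAS3. The same held for ISG15 and IFI6, IFIT3 and HERC5, and OAS2 and XAF1, which are not among these neighbour pairs. Whether neighbours are more alike than other pairs was not tested.

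No member was called different by weaning type. By limma 0 of 29 members differed between progressive and brutal mares at an adjusted p under 0.05, where the share called over all 14495 genes was 0%, and the smallest adjusted p of any gene was 0.990. At an unadjusted p under 0.05 there were 0 members, beside 2.53% of all genes. Progressive mares were lower in 21 of 29 members and higher in 8, and lower in 54.7% of all genes. The median difference, progressive minus brutal, was -0.07 for the members and -0.01 for all genes. The 2 groups overlapped in 29 of 29 members.

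The members nearest to a difference were IFI44, ISG20, IFI35, PARP9, IFI44L and IRF9. IFI44 ran from -0.53 through 0.84 to 2.43 in brutal mares and from 0.24 through 1.35 to 2.25 in progressive mares. The means were 0.81 ± 0.64 and 1.22 ± 0.65 (SD, n = 16 each), a difference of 0.42 with a 95% interval of -0.03 to 0.86 (limma p = 0.0668, adjusted 0.990). Its neighbour IFI44L was at 0.16 ± 0.71 and 0.45 ± 0.74, a difference of 0.29 (interval -0.21 to 0.79). ISG20 differed by -0.19 (-0.47 to 0.09), PARP9 by -0.15 (-0.40 to 0.09), IFI35 by -0.14 (-0.37 to 0.09) and IRF9 by -0.13 (-0.40 to 0.13). ISG20 ran from 4.54 through 5.27 to 5.66 and from 3.82 through 5.02 to 5.72, and IFI35 from 2.88 through 3.41 to 3.88 and from 2.65 through 3.31 to 4.08.

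For the central genes the intervals were wide. MX1 was at 2.11 ± 0.65 in brutal and 2.01 ± 0.94 in progressive mares, a difference of -0.10 (-0.66 to 0.46). ISG15 was at 5.69 ± 0.87 and 5.45 ± 0.89, a difference of -0.25 (-0.86 to 0.36). IFIT3 differed by -0.04 (-0.46 to 0.39), OAS1 by -0.12 (-0.49 to 0.25), IRF7 by -0.22 (-0.81 to 0.37), IFIT5 by -0.34 (-1.03 to 0.35), HERC5 by -0.02 (-0.52 to 0.47), DDX58 by -0.02 (-0.44 to 0.40), IFIH1 by 0.13 (-0.35 to 0.61) and STAT2 by -0.07 (-0.31 to 0.17). Differences of up to these bounds are compatible with the spread between mares.

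**Figure D4:**
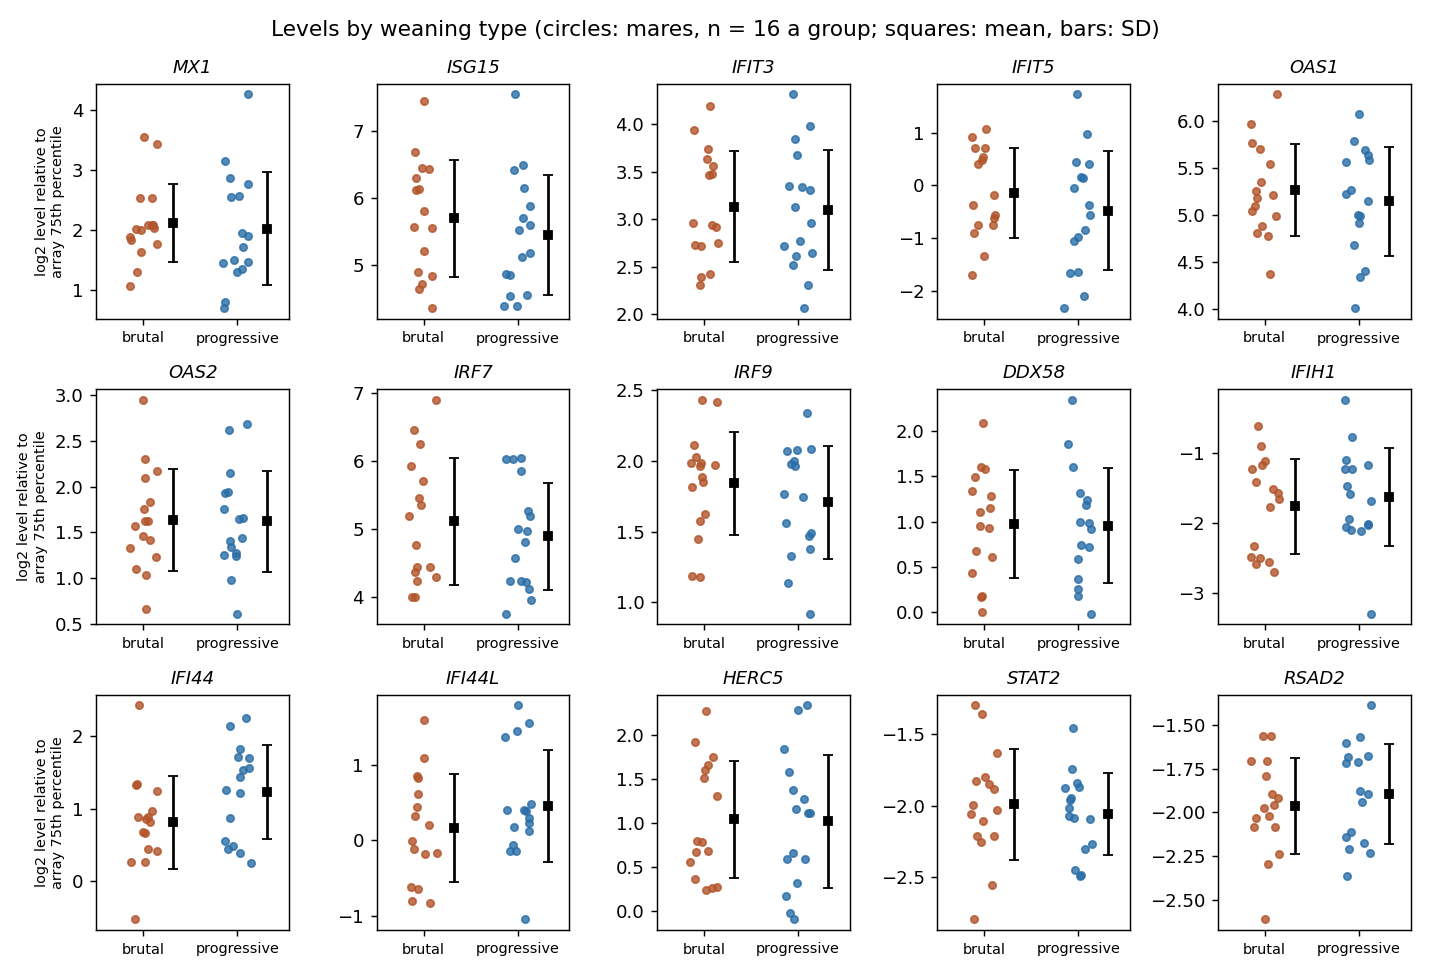
Log2 levels of 15 members by weaning type. Circles are mares (16 a group), squares the group means and bars 1 SD; the groups overlap in every panel, and IFI44 has the widest gap between means, 0.42.

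The sign of the difference changed with the slide. On slide 1, 27 of 29 members were lower in the 4 progressive mares than in the 4 brutal mares (median difference -0.39), and on slide 4, 28 of 29 were lower (median -0.39). On slide 2, 25 of 29 were higher (median 0.36), and on slide 3, 24 of 29 (median 0.29). Over all genes the medians were 0.012, -0.0061, -0.016 and -0.052 on slides 1 to 4, and 47.2%, 51.7%, 53.6% and 58.9% of genes were lower. The members co-vary over mares (median r of their pairs 0.49), so the counts within a slide are not 29 separate results. MX1 means of brutal and progressive mares were 2.36 and 1.24 on slide 1, 2.06 and 2.76 on slide 2, 1.73 and 2.74 on slide 3, and 2.29 and 1.33 on slide 4. Of the high mares named above, brutal 2 and brutal 3 lay on slide 1 and progressive 7 and progressive 8 on slide 2. Progressive 12 lay on slide 3 and brutal 14 on slide 4. The part of these mares in the slide differences was not tested. An F test of the interaction of slide and weaning type, chosen after these medians were seen, called 0 of 29 members and 0% of all genes (smallest adjusted p 0.99997). At an unadjusted p under 0.05 it had 5 members, MX1, HERC5, DDX58, ISG15 and IFIT3, and 1.37% of all genes.

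**Figure D5:**
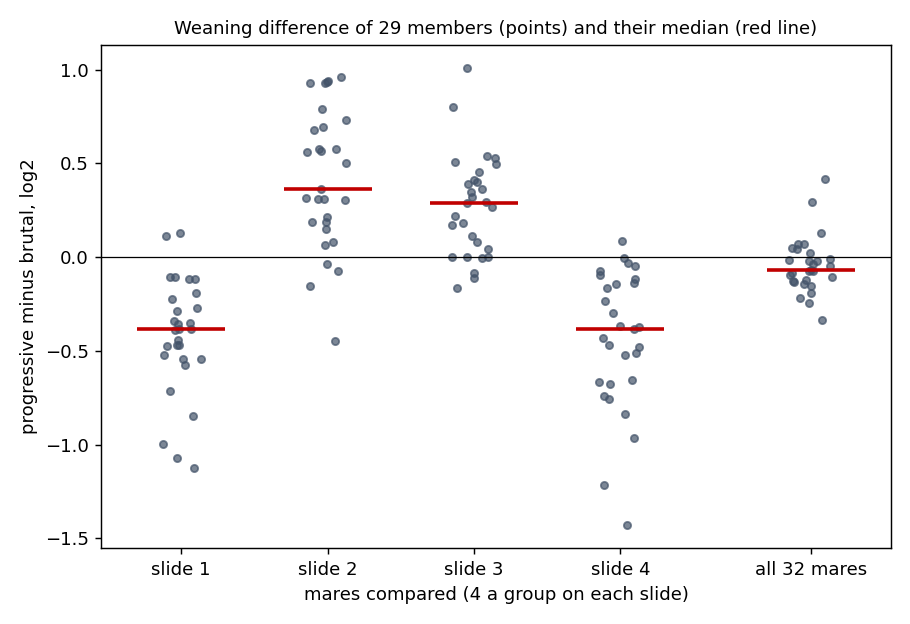
Difference between progressive and brutal mares (log2, vertical) for each of the 29 members (points), within each slide of 4 mares a group and over all 32 mares; red lines are medians. The medians are -0.39 on slides 1 and 4, 0.36 and 0.29 on slides 2 and 3, and -0.07 over all mares.

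Spread within the groups did not differ detectably. A fit of absolute deviations from the group median called 0 of 29 members and 0% of all genes (limma, smallest adjusted p 0.999), and at an unadjusted p under 0.05 it had 0 members and 2.48% of all genes. The SD was larger in progressive mares for 18 of 29 members and for 55.9% of all genes. The slope on MX1 was also not called different between the groups for any gene (0% of 14494; 5.95% at an unadjusted p under 0.05; smallest adjusted p 0.147). DTX3L, STAT2 and IRF9 had unadjusted p-values of 0.0280, 0.0343 and 0.0472, with slopes lower in progressive mares.

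Outside the interferon targets, the lists of the pathway held 0 called genes. Of 11 interferon ligands listed, only IFND1 passed the filter, with r = 0.09. Of 5 receptors and kinases tested, 0 followed MX1, including IFNAR2 (r = 0.18) of the interferon receptor and the kinase JAK2 (r = 0.38). The same held for 7 STAT and IRF factors that are no members, with IRF1 at 0.45 and IRF8 at 0.39, for 13 genes of nucleic acid sensing, with MB21D1, which encodes the DNA sensor cGAS, at 0.32 and UNC93B1 at 0.29, and for 9 genes that restrain the response, with TRIM21 at 0.47 and OTUD5 at 0.48. At an unadjusted p under 0.05 the lists from ligands to restraining genes had 0, 1, 2, 0 and 2 genes, in that order, beside 3.36% of all genes. Slopes were above 0 for 7 of the 7 STAT and IRF factors and 9 of the 9 restraining genes. They were above 0 for 9 of the 13 sensing genes and for 47.9% of all genes.

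Among other interferon targets, several rose with MX1. Of 39 tested, 7 rose with MX1 (UBA7, GBP5, ZNFX1, TNFSF10, PARP12, SAMD9L and CXCL10), 0 fell, and 37 had a slope above 0. Over all genes 0.345% rose, 0.0069% fell and 47.9% had a slope above 0. GBP5, a GTPase of cell-autonomous defence, had a slope of 0.56 ± 0.10 (r = 0.70, adjusted p = 0.00282). CXCL10, an interferon-induced chemokine, had r = 0.60 (adjusted p = 0.0401). By weaning type 0 of these 39 and 0 of the other pathway genes were called, and 1 of them, MYD88, had an unadjusted p under 0.05. The smallest unadjusted p was at LAP3 for the other targets (0.23 ± 0.13, p = 0.0835), and at IFNAR2 (-0.14 ± 0.07), IRF5 (-0.17 ± 0.10), MYD88 (-0.20 ± 0.10, p = 0.0485), NLRX1 (-0.23 ± 0.14) and IFND1 (0.07 ± 0.13) for the other lists.

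Among all genes that are no members, those most like MX1 over the 32 mares included TRANK1 (r = 0.81), SPATS2L (r = 0.80), UBA7 and GBP5. A probe set named for an expressed sequence that the reference table assigns to ZNFX1 had r = 0.76. The other 5 of these 10 carry no gene symbol in the files or the reference table. The only gene called as falling with MX1 was a sequence assigned to SLC25A51 (r = -0.68, slope -0.18 ± 0.04, adjusted p = 0.0212). EIF2A (-0.53), FAM160A2 (-0.50) and TFB2M (-0.50) had the next lowest r among named genes, with adjusted p-values of 0.460, 0.99995 and 0.402.

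Markers of blood cell types were set beside these results. The mean level of 8 monocyte markers (12 were listed) ran from 1.26 to 2.54 in brutal and from 1.48 to 2.31 in progressive mares and had r = 0.34 with MX1, and that of 8 natural killer cell markers (of 10) ran from -0.03 to 1.03 and from 0.03 to 1.23 and had r = 0.35. The 14 neutrophil, 12 T cell and 9 B cell markers had r of 0.08, -0.06 and -0.08. Markers of plasmacytoid dendritic cells, the main interferon producers, had r = 0.27 over the 4 that are no members. In each of these lists 0 genes were called with MX1, apart from IRF7, which is also a plasmacytoid marker. With dendritic and monocyte marker levels in the fit 9 members were called (0.166% of all genes), and with neutrophil, T cell, erythroid and platelet levels 14 (0.428%). By weaning type, 14 of 14 neutrophil markers (median -0.27), 6 of 6 erythroid markers (median -0.43) and 8 of 9 platelet markers (median -0.37) were lower in progressive mares. Over all genes 54.7% were lower (median -0.01). Whether the markers of a list vary together over mares was not tested, so these counts are not taken as separate results. Of the markers on the array, 14 of 14 neutrophil, 6 of 10 erythroid and 9 of 12 platelet markers were tested. Limma called 0 of them, and 1, 2 and 4 had an unadjusted p under 0.05, beside 2.53% of all genes. Their part in the members' differences was not tested.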

How the data were processed

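Intensity values per spot came from the scanner files that the authors deposited, 1 per mare. They were made with Agilent Feature Extraction 10.10.1.1, per the submitters' processing notes, and the processed signal has its background subtracted, per the file headers. Outlier spots were left out. The log2 of the processed signal minus the array's 75th percentile over non-control spots was averaged over spots of a probe. A gene was represented by its brightest probe and tested when 8 or more of a group's 16 arrays showed it well above background. Linear models were fitted with limma 3.58.1 (R 4.3.3), moderated by its eBayes step, with Benjamini-Hochberg adjustment over all genes tested and a threshold of 0.05. They were tested on simulated data. The deposited series table of 25619 probes, whose log2 values the authors normalised in a way not given in the sources used here, served as an alternative. Its column medians were all about 8.40, and each column ranked its own array's probes at a rank correlation of 0.996 or more, so its scale is log2 and direction that of the intensities, while its centring was not stated. No label says that replicate arrays came from anything but separate mares, and replicates carry accession-order numbers only.

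The members, gene lists and tests were chosen with earlier results of these data known. Genes named in full were MX1, ISG15, IFIT3, OAS1, STAT2, IRF7, IRF9, DDX58 and IFIH1, the 6 members with the smallest weaning p, the 6 with the largest SD, the 10 other genes most like MX1, the 5 most opposite, and of each pathway list 2 by MX1 and 1 by weaning. Of locus and accession names, symbols came from the RefSeq table of assembly TB-T2T, whose coordinates were not used because the files' build differs. Permutation tests used numpy 2.4.6. Some items are not reported here.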

Additional observations from a re-analysis of the deposited data

How the results depend on the processing

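No paired analysis was possible because the labels tie no brutal mare to any progressive mare and carry no replicate numbers. The count of members called by weaning type was 0 under every alternative run, as was that for spread. The members' median difference was 0.36 on slide 2 alone. Among 28 members, the count called with MX1 was 10 to 15 under the other normalisations, filters, probe choices and slide block, but fell from 13 to 4 without slide 1, 7 without slide 3, 8 without the 2 mares farthest in MX1, 0 in brutal and 2 in progressive mares alone, and 6, 16 and 17 with STAT2, IFIT3 and OAS2 as the reference in place of MX1, of which 3, 9 and 11 were among the 13. With another reference, both that gene and MX1 were left out of the count. IFIT3 and OAS2, which are among the 13, could thus not be called as their own reference. Of those 13, HERC5 and OAS2 lost their call under 1 of 19 alternatives, 6 others under 2 to 4, and PARP9, IFI35, EIF2AK2, IRF9 and IFI6 under 5, 6, 11, 13 and 14. The median slope was 0.47 in brutal mares alone, 0.54 with IFIT3, 0.60 with OAS2 and 0.54 with STAT2 as reference. All genes called numbered 51, but 9, 29 and 15 without slides 1, 2 and 3, 32 with no filter, 95 over every probe, 0 in brutal and 4 in progressive mares, 15 without the 2 farthest mares, 24 with dendritic and monocyte terms, and 221, 79 and 985 with IFIT3, OAS2 and STAT2 as reference. Pathway genes called numbered 7, but 1, 2 and 1 without slides 1, 2 and 3, 4 with no filter, 0 in brutal and 0 in progressive mares, 0 without the farthest mares, 3 with dendritic and monocyte terms, 11 with blood composition terms, and 15 and 13 with IFIT3 and STAT2 as reference. The cause was not tested.

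Signs reversed within single slides for IFI44 (-0.0501 on slide 4), IFI44L (-0.27 on slide 1), ISG20 (0.0640 on slide 2), IFI35 (0.0801 and 0.11 on slides 2 and 3), PARP9 (0.18 on slide 3) and IRF9 (0.19 and 0.0455 on slides 2 and 3). Slopes on MX1 near 0 also reversed. RSAD2 was 0.0185 without slide 1, 0.0277 in progressive mares, 0.0334 without the farthest mares and 0.0221 with dendritic and monocyte terms. TRIM25 was 0.00884 and 0.0272 without slides 2 and 4, 0.0431 without the farthest mares and 0.0242 with those terms. STAT2 was -0.0340 in progressive mares. The count of promoters with interferon response elements was not run. For MX2 the signal over background was too low to measure its level.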
